A study of Bos taurus with 2 samples.

Results

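INSM1, NHLH1, ONECUT1, ONECUT2, EBF2, ST18 and ISL1 are transcription factors that switch on as neural progenitors leave the cell cycle and become neurons. The 7 genes, and the gene lists used below, were chosen by name with earlier results of these data known. The 7 were found by symbol among the 17846 genes of the table. Their levels, and their detection together in the same cell, were followed from progenitors through newborn to later neurons in 2 single-cell libraries (replicates 1 and 2) of day 25 bovine embryos. The embryos were chimeras carrying incorporated bovine embryonic stem cells. Both libraries carry the same labels, so there is no untreated or wild-type group, and every comparison is between kinds of cells within the libraries. The embryos were dissociated with papain and the cells were sorted before capture on the 10x Genomics Chromium 3′ platform. The sort gate, and whether the libraries came from separate embryos, are not given in the sources used here. A shift common to a whole library is removed in the fit. The p-values therefore measure only how differences between kinds of cells vary across these 2 libraries. That variation is estimated over all 13 groups of cells fitted, and it need not cover the spread between embryos.

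A neuron is born when a dividing neural progenitor withdraws from the cell cycle under proneural factors. INSM1, a zinc-finger repressor, and NHLH1, a basic helix-loop-helix factor, mark this exit and are brief in many neural lineages of the mouse. ST18, a zinc-finger factor of the MYT1 family, and EBF2, of the Olf/EBF family, act during early differentiation and migration. ONECUT1 and ONECUT2 are cut-homeodomain factors that stay on in subsets of neurons of the spinal cord, hindbrain, midbrain and retina. ISL1 is a LIM-homeodomain factor of motor, sensory and sympathetic neurons, and is also known from heart progenitors.

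Of 4437 deposited barcodes, 4159 cells were kept, 1843 in replicate 1 and 2316 in replicate 2, with medians of 5232 and 5974 UMI (unique molecular identifiers, counted RNA molecules) per cell. The libraries shared 6 barcodes. Cells were clustered without the 7 factors, and a group of clusters was named from fixed markers. Progenitors numbered 956 and 1078 cells in replicates 1 and 2, newborn neurons 91 and 103, and later neurons 95 and 117. A cluster called noradrenergic neuron-like held 86 and 99 cells, and a neuron subcluster that met neither the newborn nor the later rule (subcluster 0) held 28 and 29. Levels are given as CPM, the UMI of a gene scaled to the summed UMI of all cells of a stage. The libraries count RNA at its 3′ end, and levels are compared between cells and not between genes.

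The stage names rest on markers and not on time. One of the newborn subclusters was named mainly for its progenitor markers, which had 0.67 of their highest mean level there, against 0.40 for newborn markers and 0.47 for later markers. Newborn and later cells also differed in markers of neuron type, so stage and type cannot be told apart. Every stage also held cells rich and cells poor in ribosomal-protein UMI, split at 7% of a cell's UMI. The rich cells made up 28 and 37 of the newborn cells and 29 and 66 of the later cells in replicates 1 and 2, and were deeper. In newborn neurons the median was 9452 and 10188 UMI in rich cells and 3952 and 3537 UMI in poor cells. The stages are therefore also compared within each class.

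Neurons held most of the UMI of 6 of the 7 factors. The newborn, later, noradrenergic neuron-like and subcluster 0 cells were 15.6% of all cells (648 of 4159). They carried 81.7% of the 618 INSM1 UMI, 83.7% of the 49 NHLH1 UMI, 94.98% of the 518 ONECUT1 UMI and 87.0% of the 1113 ONECUT2 UMI. The same cells carried 82.4% of the 569 EBF2 UMI, 91.7% of the 421 ST18 UMI and 35.7% of the 126 ISL1 UMI. In mesenchyme-like cells, INSM1, NHLH1, ONECUT1, ONECUT2, EBF2 and ISL1 had a UMI in 0 of 35 cells of replicate 1 and 0 of 72 of replicate 2. A count of 0 there allows shares of up to 8.57% and 4.17%. Only ST18 had any UMI there, 1 in replicate 1. These cells were deep, with medians of 11773 and 11935.5 UMI. In blood and erythroid-like cells, with medians of 22776 and 21761 UMI, ONECUT2 had a UMI in 1 of 11 and 2 of 24 cells and the other 6 factors had 0 UMI. Those shares, 9.09% and 8.33%, lie above the ONECUT2 shares of progenitors, 3.35% and 3.90%. Progenitors were shallower, with medians of 4680.5 and 4352 UMI. As levels the order was reversed, at 4.2 and 3.6 CPM in blood and erythroid-like cells and 7.02 and 8.25 CPM in progenitors. The blood values rest on 1 and 2 UMI, so they do not decide whether ONECUT2 in progenitors is background.

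**Figure D1:**
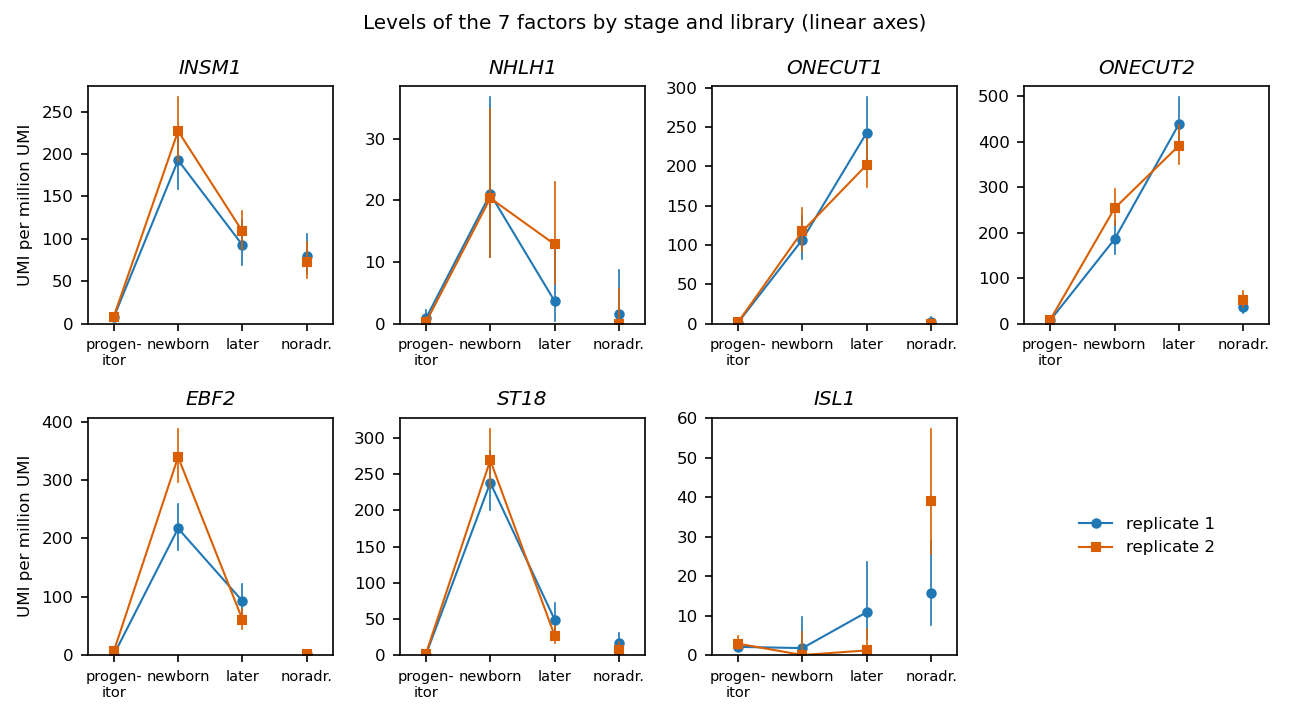
Levels of each factor (CPM, linear axes starting at 0) in progenitors, newborn neurons, later neurons and, set apart, noradrenergic neuron-like cells, with 1 point for each replicate and vertical lines for 95% Poisson intervals (exact, counting error only). INSM1, NHLH1, EBF2 and ST18 are highest in newborn neurons, ONECUT1 and ONECUT2 are highest in later neurons, and ISL1 is highest in noradrenergic neuron-like cells.

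Against progenitors, newborn neurons had higher levels of 6 of the 7 factors at an adjusted p under 0.05 (edgeR quasi-likelihood fit, Benjamini-Hochberg over all 11387 genes tested), and ISL1 was not called. Of all genes tested, 23.9% were called higher in that comparison. The factors were chosen with earlier results of these data known, so such counts describe them and do not test the list. Later neurons likewise had higher levels of the same 6 factors than progenitors, where 28.8% of all genes were called higher. Between later and newborn neurons the factors parted. ONECUT1 and ONECUT2 were higher in later neurons, where 6.14% of all genes were called higher. INSM1 and ST18 were lower in later neurons, where 4.96% were called lower.

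INSM1, the zinc-finger repressor, was highest in newborn neurons as a pooled stage. It was at 7.23 and 8.05 CPM in progenitors, 193 and 227 CPM in newborn neurons, and 92.5 and 109 CPM in later neurons, in replicates 1 and 2. The libraries of each stage lay apart from those of every other stage. The log2 fold change was 5.07 ± 0.29 (SE) in newborn neurons against progenitors (adjusted p = 1.1e-19). In later against newborn neurons it was -0.999 ± 0.26 (adjusted p = 0.0075). A UMI of INSM1 was found in 35.2% of newborn cells of replicate 1 (exact 95% interval 25.4 to 45.9) and 37.9% of replicate 2 (28.5 to 48.0). In later neurons the shares were 18.9% and 31.6%, and in progenitors 3.24% and 3.43%.

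The lower INSM1 level of later neurons was not called in ribosomal-poor cells, described with the classes, or under 6 other settings. DESeq2 gave an adjusted p of 0.16, cells with at least 1000 genes 0.19, and the finer Leiden resolution of 2.0 gave 0.15. The adjusted p was 0.79 with limma-trend, 0.43 with genes centred within libraries and 0.092 with subcluster 0 counted as newborn.

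NHLH1 was the sparsest of the newborn factors, with 49 UMI in all. It had 4 and 1 UMI in progenitors, 12 and 13 UMI in newborn neurons, and 2 and 11 UMI in later neurons. As levels these are 0.83 and 0.19 CPM, 21.0 and 20.4 CPM, and 3.63 and 12.9 CPM. Newborn neurons were higher than progenitors (log2 fold change 5.32 ± 0.76, adjusted p = 3.8e-08). Later neurons did not pass the test against newborn neurons (log2 fold change -1.15 ± 0.70, adjusted p = 0.34), although both their libraries lay below both newborn libraries. In noradrenergic neuron-like cells NHLH1 had 1 UMI in replicate 1 and 0 in replicate 2.

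ST18, the MYT1-family factor, was lower in later than in newborn neurons. Its level was 0.41 and 1.73 CPM in progenitors, 238 and 269 CPM in newborn neurons, and 49.0 and 26.9 CPM in later neurons. The log2 fold change was 7.998 ± 0.34 in newborn neurons against progenitors (adjusted p = 4.0e-29) and -2.75 ± 0.29 in later against newborn neurons (adjusted p = 5.2e-11). A UMI of ST18 was found in 48.4% and 50.5% of newborn cells (exact 95% intervals 37.7 to 59.1 and 40.5 to 60.5), against 0.21% and 0.56% of progenitors. With every cell thinned to 2000 UMI, newborn shares were 26.7% and 40.0%, against 8.64% and 3.64% of later cells. The lower level in later neurons was not called by limma-trend (adjusted p = 0.060).

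EBF2, the Olf/EBF factor, was found in fewer newborn cells than ST18. It had a UMI in 26.4% and 30.1% of newborn cells, with a median of 3 and 4 UMI in those cells and up to 18 and 23 in 1 cell. Its level was 0.21 and 6.14 CPM in progenitors, 217 and 340 CPM in newborn neurons, and 92.5 and 60.8 CPM in later neurons. Newborn neurons were higher than progenitors (log2 fold change 6.69 ± 0.64, adjusted p = 5.5e-06). Later neurons were lower in both libraries but did not pass the test (log2 fold change -1.83 ± 0.56, adjusted p = 0.061). Fitted without the robust option, which was added after the data were seen, the same difference passed (adjusted p = 6.3e-05).

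A single cell carried most of the EBF2 of progenitors. In replicate 2, 25 of the 32 EBF2 UMI were in 1 of the 4 progenitor cells with any. That cell had 8160 UMI, held 4 of the 7 factors, and also carried 4 UMI each of the neuronal genes ELAVL4 and STMN2 beside 2 UMI of SOX2. In replicate 1, EBF2 had 1 UMI in 956 progenitor cells. The newborn fold change was 9.41 on the log2 scale in replicate 1 alone and 6.04 in replicate 2 alone.

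ONECUT1 and ONECUT2, the cut-homeodomain factors, were higher in later than in newborn neurons as pooled stages. ONECUT1 was at 1.24 and 1.73 CPM in progenitors, 107 and 117 CPM in newborn neurons, and 243 and 202 CPM in later neurons. Later neurons were higher than newborn neurons (log2 fold change 1.04 ± 0.23, adjusted p = 0.00082) and newborn neurons higher than progenitors (6.42 ± 0.33, adjusted p = 2.0e-25). ONECUT2 was at 7.02 and 8.25 CPM in progenitors, 186 and 254 CPM in newborn neurons, and 439 and 391 CPM in later neurons. Its log2 fold changes were 0.98 ± 0.21 in later against newborn neurons (adjusted p = 0.00089) and 5.14 ± 0.26 in newborn neurons against progenitors (adjusted p = 1.3e-23).

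More later than newborn cells held a UMI of either gene. ONECUT1 had a UMI in 44.2% and 44.4% of later cells (exact 95% intervals 34.0 to 54.8 and 35.3 to 53.9). In newborn cells its shares were 35.2% and 36.9% (25.4 to 45.9 and 27.6 to 47.0), and the intervals of the stages overlap. ONECUT2 had a UMI in 57 of 95 and 69 of 117 later cells (exact 95% intervals 49.4 to 69.9 and 49.5 to 68.0), against 38.5% and 35.9% of newborn cells (28.4 to 49.2 and 26.7 to 46.0). Thinned to 2000 UMI, ONECUT2 had a UMI in 39.5% and 42.7% of later cells, against 23.3% and 25.6% of newborn cells. The later-against-newborn call of both genes was lost with limma-trend, with all deposited barcodes, with genes centred within libraries and with stages made from marker sums. In the last 2 settings the ONECUT1 difference turned to -0.21 and -0.077.

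The 2 subclusters pooled in each stage did not share these levels. INSM1 was at 298 and 324 CPM in newborn subcluster 4 but at 31.1 and 19.6 CPM in newborn subcluster 1, which held 50 and 53 of the 91 and 103 newborn cells. The values of subcluster 1 lie below those of later subcluster 2, at 165 and 135 CPM, and of noradrenergic neuron-like cells, and later subcluster 3 had 0 and 2 UMI. ONECUT1 was at 298 and 230 CPM in later subcluster 2 and at 173 and 99.5 CPM in later subcluster 3, against 187 and 196 CPM in newborn subcluster 1 and 54.9 and 80.5 CPM in newborn subcluster 4. ONECUT2 was at 551 and 442 CPM in later subcluster 2 and at 297 and 205 CPM in later subcluster 3, against 334 and 319 CPM in newborn subcluster 1 and 89.6 and 223 CPM in newborn subcluster 4. For both ONECUT genes, later subcluster 3 was thus below newborn subcluster 1 in both libraries, so the order of the stages depends on which subclusters are pooled.

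ST18 and EBF2 differed in how far the subclusters kept the order. ST18 was at 42.1 and 32.6 CPM in later subcluster 2 and at 57.7 and 5.53 CPM in later subcluster 3, against 320 and 461 CPM in newborn subcluster 1 and 185 and 179 CPM in newborn subcluster 4. Both later subclusters were below both newborn subclusters. EBF2 was at 35.7 and 57.8 CPM in later subcluster 2 and at 165 and 71.9 CPM in later subcluster 3, against 347 and 589 CPM in newborn subcluster 1 and 133 and 223 CPM in newborn subcluster 4. Later subcluster 3 and newborn subcluster 4 overlapped.

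ISL1 did not follow the neuronal stages. It was at 2.07 and 2.88 CPM in progenitors, 1.75 and 0 CPM in newborn neurons, and 10.9 and 1.17 CPM in later neurons. No comparison of stages passed the test for ISL1, with adjusted p = 0.60 for newborn neurons against progenitors, 0.40 for later against newborn neurons and 0.23 for later neurons against progenitors. Its highest mean level was in the noradrenergic neuron-like cells, at 15.7 and 39.1 CPM, which overlapped cluster 16 at 4.11 and 23.7 CPM. Among the noradrenergic neuron-like cells, 6 of 86 and 7 of 99 had a UMI. In replicate 2 they held 26 UMI, and 13 of these were in 1 cell.

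The other ISL1 UMI lay mainly in progenitors and in clusters outside the named stages. Progenitors held 25 of the 126 UMI in 20 cells, cluster 15 held 20 in 11 cells, cluster 16 held 19 in 11 cells and cluster 11 held 14 in 9 cells. Clusters 11, 15 and 16 carry no stage name. Neural progenitor markers were the best-matching list of clusters 11 and 15, with 11 and 8 of 16 detected. In cluster 15, which is led by COL25A1 and EDIL3 among other genes, ISL1 was at 16.5 and 11.1 CPM. Cluster 16 mixed trophoblast and plasma-protein genes and is not read as a cell type.

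Across the 13 units with at least 20 cells in each library, the order of levels separated the factors into different patterns. INSM1 was ordered newborn, later, noradrenergic neuron-like and subcluster 0, with no overlap of libraries between neighbours. In ONECUT1 the order was later, subcluster 0 and newborn, and the libraries of the first pair overlapped. ONECUT2 had the same first 3 units in that order, with subcluster 0 and newborn overlapping, followed by noradrenergic neuron-like cells at 36.1 and 51.2 CPM. EBF2 and ST18 were both highest in newborn neurons, with subcluster 0 and later neurons next and overlapping each other. In noradrenergic neuron-like cells INSM1 was at 80.1 and 72.3 CPM, whereas ONECUT1 had 1 and 0 UMI and EBF2 had 1 and 1 UMI.

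The ribosomal classes also follow the subclusters. All 28 and 37 rich newborn cells were in subcluster 4 and all 29 and 66 rich later cells were in subcluster 2, whereas subclusters 1 and 3 held 0 rich cells. Of the poor cells, subcluster 1 made up 50 of 63 and 53 of 66 newborn cells, and subcluster 3 made up 48 of 66 and 32 of 51 later cells. Class and subcluster were not separated in what follows.

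**Figure D2:**
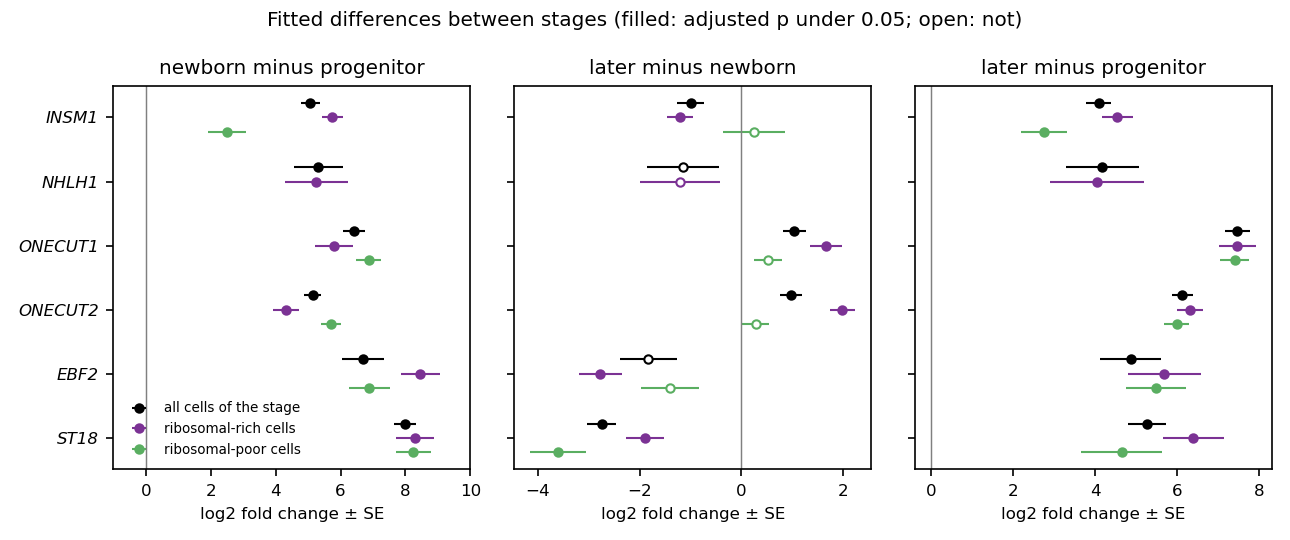
Fitted log2 fold changes with their SE (edgeR, horizontal axes) for 6 factors in the 3 comparisons of stages, from all cells of a stage and from ribosomal-rich and ribosomal-poor cells alone; filled points passed the test. All points lie above 0 against progenitors, whereas later minus newborn neurons shows ONECUT1 and ONECUT2 to the right of 0 and EBF2 and ST18 to the left; NHLH1 was not tested in ribosomal-poor cells, and ISL1 is not drawn.

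Of the 7 factors tested in ribosomal-rich cells, 6 were higher in newborn neurons than in progenitors, where 17.2% of all genes were called higher, and 6 were higher in later neurons than in progenitors, against 23.6% of all genes, with 21.4% called lower. In later against newborn neurons 2 were called higher, against 4.4% of all genes, and 3 lower, against 3.78%. INSM1 was at 189 and 138 CPM in rich later cells, against 364 and 369 CPM in rich newborn cells (log2 fold change -1.21 ± 0.26, adjusted p = 0.0015). EBF2 was at 27.6 and 26.2 CPM in rich later cells, against 167 and 194 CPM in rich newborn cells (-2.77 ± 0.42, adjusted p = 2.7e-06). ONECUT2 was at 428 and 426 CPM in rich later cells, against 74.2 and 137 CPM in rich newborn cells (1.98 ± 0.25, adjusted p = 6.0e-08). The newborn and later libraries did not overlap for any of these 3 genes. ST18 was at 55.3 and 36.7 CPM in rich later cells, against 163 and 162 CPM in rich newborn cells (-1.90 ± 0.37, adjusted p = 0.00022).

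Within ribosomal-poor cells, 5 factors passed the filter on low counts and all 5 were higher in newborn neurons than in progenitors, where 23.4% of all genes were called higher. The same 5 were higher in later neurons than in progenitors, against 25.7% of all genes. ST18 was lower in later than in newborn cells (44.9 and 7.06 CPM in poor later cells, against 305 and 419 CPM in poor newborn cells; log2 fold change -3.59 ± 0.55, adjusted p = 0.00060), where 4.9% of all genes were called lower. Neither ONECUT gene passed between later and newborn cells there, with adjusted p = 0.24 for ONECUT1 and 0.57 for ONECUT2, where 6.52% of all genes were called higher. ONECUT2 was at 446 and 321 CPM in poor later cells, against 285 and 415 CPM in poor newborn cells, and these values overlap. INSM1 also overlapped, at 29.9 and 49.4 CPM in poor later cells, against 39.8 and 29.9 CPM in poor newborn cells (log2 fold change 0.25 ± 0.62, adjusted p = 0.86).

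**Figure D3:**
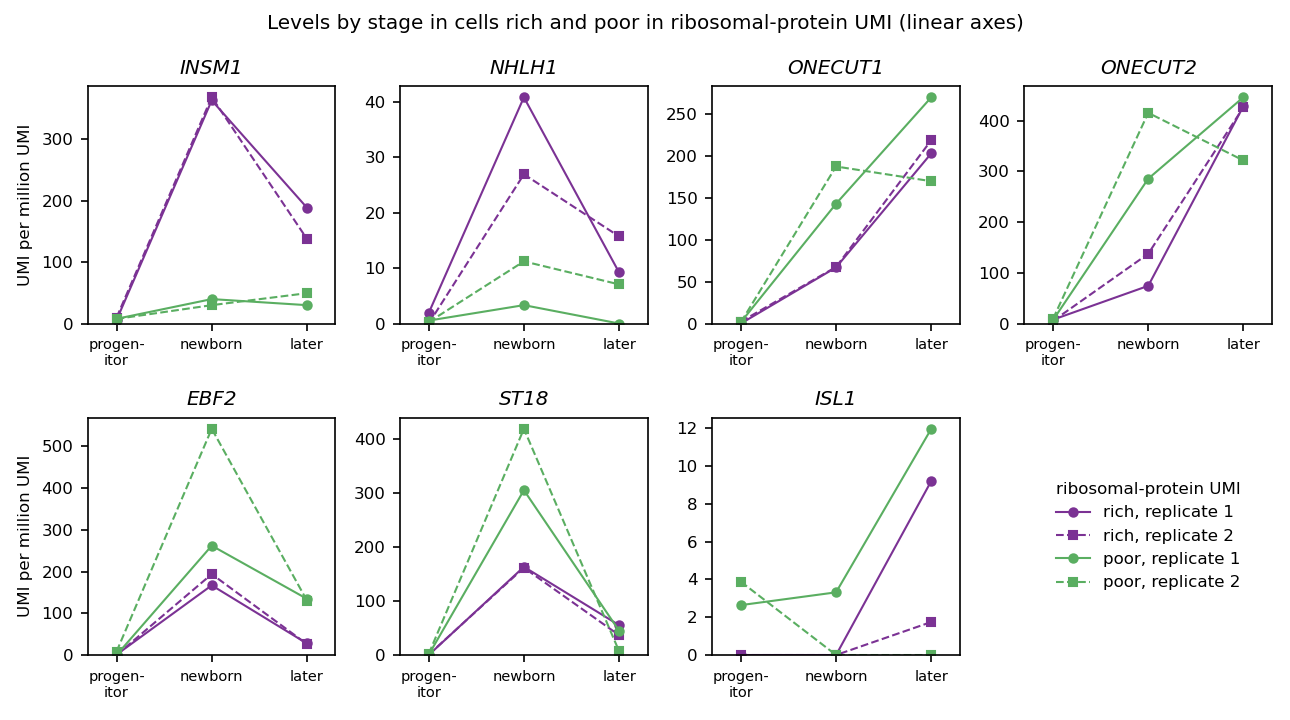
Levels of each factor (CPM, linear axes starting at 0) by stage in cells rich (purple) and poor (green) in ribosomal-protein UMI, with 1 line for each replicate. INSM1 is at 364 and 369 CPM in rich newborn cells and at 39.8 and 29.9 CPM in poor newborn cells, whereas ONECUT2 is at 74.2 and 137 CPM in rich and at 285 and 415 CPM in poor newborn cells.

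INSM1 differed between the classes in newborn and in later neurons. In newborn neurons, rich cells had 364 and 369 CPM, against 39.8 and 29.9 CPM in poor cells (log2 fold change 3.64 ± 0.37, adjusted p = 1.3e-11). NHLH1 was called higher in rich newborn cells too, with 11 and 10 UMI in rich cells against 1 and 3 UMI in poor cells (adjusted p = 0.035), where 17.7% of all genes were called higher. ONECUT1, ONECUT2 and ST18 were lower in rich than in poor newborn cells, where 15.6% of all genes were called lower. For ONECUT2 these were 74.2 and 137 CPM in rich cells against 285 and 415 CPM in poor cells (log2 fold change -1.40 ± 0.27, adjusted p = 7.8e-05). In later neurons, INSM1 was again higher in rich cells (2.13 ± 0.40, adjusted p = 2.7e-05), against 17.1% of all genes, and neither ONECUT gene differed past the threshold. The difference of the stage contrasts between classes was itself tested. It passed for INSM1 in newborn neurons against progenitors (3.35 ± 0.62, adjusted p = 0.00019), where 4.82% of all genes were called higher and 3.26% lower. It passed for ONECUT2 in later against newborn neurons (1.65 ± 0.34, adjusted p = 0.0082), where 0.149% were called higher and 0.799% lower. In progenitors ISL1 was called lower in rich cells (adjusted p = 0.047), where 26.1% of all genes were called lower. It had a UMI in 0 of 151 and 0 of 190 rich progenitors, which allows shares of up to 1.99% and 1.58%, against 0.99% and 1.35% of poor progenitors. The part of depth and RNA quality in these class differences was not tested.

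Newborn and later neurons often held several of the factors in the same cell. At least 1 of the 7 factors had a UMI in 8.47% and 9.28% of progenitors, 87.9% and 81.6% of newborn neurons, and 75.8% and 72.6% of later neurons. At least 3 factors were found together in 0 and 1 progenitor cells, in 30 and 38 newborn cells (33.0% and 36.9%), and in 22 and 35 later cells (23.2% and 29.9%). The most in 1 cell was 6, in replicate 2 of newborn and of later neurons. In noradrenergic neuron-like cells 53.5% and 47.5% had at least 1 factor and 2 cells in each library had 3. Thinned to 2000 UMI, at least 1 factor was found in 4.09% and 4.59% of progenitors, 72.1% and 71.1% of newborn neurons, and 56.8% and 57.3% of later neurons. Thinning left out 5 and 13 newborn cells, 14 and 7 later cells and 100 and 141 progenitors below 2000 UMI.

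**Figure D4:**
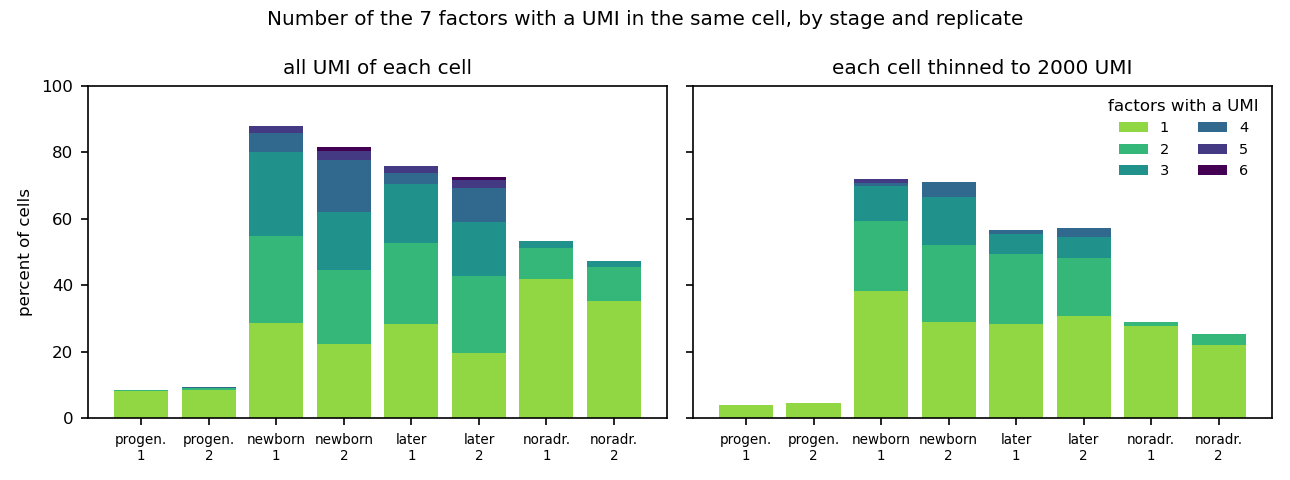
Percent of cells (vertical axis) with 1 to 6 of the 7 factors, for progenitors, newborn neurons, later neurons and noradrenergic neuron-like cells in each replicate, with all UMI (left) and after thinning to 2000 UMI (right). Progenitors stay below 10%, and newborn neurons are the tallest bars in both panels.

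The pairs were then set against the product of their shares, the number of cells that would hold both if detection of one said nothing of the other. In newborn neurons 10 pairs could be scored in both libraries, meaning that the product gave at least 3 cells, and 5 of them exceeded the product in both. In later neurons 7 pairs could be scored and all 7 exceeded it in both, with ratios of 1.03 to 1.76. Thinned to 2000 UMI, 4 of 10 newborn pairs exceeded the product in both libraries and 1 lay under it in both, with ratios from 0.415 to 2.37, and 1 later pair could be scored, above it in both. Deep cells hold more of every gene, which raises these ratios, so they are given as a description with no test. Cells of 1 library are not replicates.

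ONECUT1 and ONECUT2 were found together in 34 later cells of replicate 1, where the product gave 25.2, and in 43 of replicate 2, where it gave 30.7. The ratios were 1.35 and 1.40, and they were 1.54 and 1.86 after thinning. In newborn neurons the same pair was in 16 and 18 cells, ratios of 1.30 and 1.32. Within poor later cells the ratios were 1.40 and 1.72, and within rich later cells 1.24 and 1.23. The pair thus exceeded the product in both libraries of each stage and of each class of later cells.

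ONECUT1 and EBF2 were the newborn pair with the highest ratio scored in both libraries, with 13 and 17 cells and ratios of 1.54 and 1.49. ONECUT2 and EBF2 were together in 13 and 14 newborn cells (1.41 and 1.26), and EBF2 and ST18 in 14 and 22 (1.21 and 1.41). Thinned, these 3 pairs kept ratios above 1 in both libraries. INSM1, by contrast, gave ratios below 1 in replicate 1 and above 1 in replicate 2 with ONECUT1 (0.71 and 1.11), with ONECUT2 (0.89 and 1.14) and with EBF2 (0.83 and 1.28). Newborn cells pool subcluster 4, where INSM1 was higher, and subcluster 1, where ONECUT1, ONECUT2 and EBF2 were higher. The part of this pooling in the newborn ratios was not tested. Of newborn cells with NHLH1, 5 of 5 in replicate 1 and 9 of 11 in replicate 2 also had INSM1. In later neurons INSM1 and ONECUT1 were together in 14 and 25 cells, where the product gave 7.96 and 16.4.

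**Figure D5:**
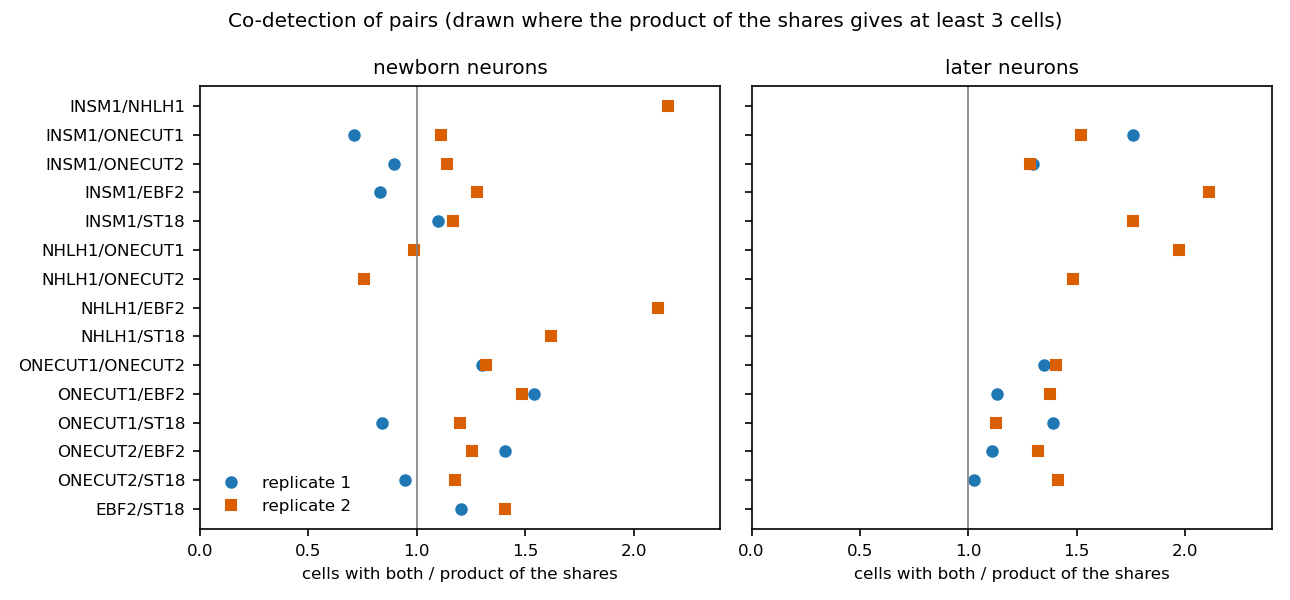
Cells with a UMI of both genes of a pair, divided by the number that the product of their shares gives (horizontal axis, 1 marked by a grey line), in newborn and later neurons, with 1 point for each replicate. Every pair drawn for later neurons lies to the right of 1, whereas INSM1 with ONECUT1, ONECUT2 and EBF2 lies on both sides of 1 in newborn neurons.

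Within newborn neurons, cells with a factor were compared with cells without it, as a description with no test, for genes that had served as markers. HES6, a target of proneural factors that promotes differentiation, had a UMI in 78.1% and 84.6% of newborn cells with INSM1, against 27.1% and 32.8% of those without. Cells with INSM1 also had medians of 8914.5 and 9949 UMI, against 3952 and 3581, and the part of that depth in the HES6 shares was not tested. All 5 NHLH1 cells of replicate 1 and 90.9% of the 11 of replicate 2 had HES6. GATA2, a zinc-finger factor of inhibitory interneurons in the brainstem and spinal cord, had a UMI in 4.17% and 3.23% of newborn cells with EBF2, against 16.4% and 20.8% of those without. With ONECUT1 the GATA2 shares were 6.25% and 7.89%, against 16.9% and 20.0% without it. EBF2 was in only 24 and 31 newborn cells and ONECUT1 in 32 and 38, so the GATA2 shares among them rest on very few cells. The EBF2 groups had similar depth, with medians of 5516 and 6186 UMI in cells with it and 5827 and 5602.5 UMI in cells without it. The part of the pooled subclusters in the GATA2 shares was not tested.

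Of the paralogs of the 7 factors, 7 of 9 passed the filter on low counts. Newborn neurons had 5 of them higher than progenitors, where 23.9% of all genes were called higher. EBF1, the family member next to EBF2, was at 797 and 786 CPM in newborn neurons, against 5.17 and 9.97 CPM in progenitors (log2 fold change 6.98 ± 0.42, adjusted p = 9.9e-10). EBF3 was at 140 and 130 CPM in newborn neurons, against 12.8 and 11.5 CPM in progenitors. Neither EBF1 nor EBF3 passed between later and newborn neurons, with adjusted p = 0.50 and 0.60. MYT1, of the family of ST18, was at 66.6 and 57.9 CPM in newborn neurons, against 0.41 and 1.73 CPM in progenitors, and it too did not pass between later and newborn neurons (-0.12 ± 0.33, adjusted p = 0.88). MYT1L, a repressor of non-neuronal genes, was higher in later than in newborn neurons (0.92 ± 0.21, adjusted p = 0.0014). The median log2 fold change of the paralogs tested was 3.78 in newborn neurons against progenitors and 0.39 in later against newborn neurons, beside -0.01 and 0 over all genes.

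Other neurogenic factors that had not entered the clustering moved with the stages. All 10 proneural and early neurogenic factors tested were higher in newborn neurons than in progenitors (median log2 fold change 3.57), where 23.9% of all genes were called higher. In later against newborn neurons 2 of the 10 were lower and 2 higher, beside 4.96% and 6.14% of all genes. Of these, TCF12, a partner of proneural factors, was at 1669 and 1178 CPM in later neurons, against 3008 and 2915 CPM in newborn neurons (-1.01 ± 0.19, adjusted p = 9.6e-05). All 14 S phase genes and 13 of 15 G2 and M phase genes were lower in newborn neurons than in progenitors, where 23% of all genes were called lower. The G2 and M phase gene MKI67 was at 7.01 and 10.96 CPM in newborn neurons, against 120 and 149 CPM in progenitors.

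Genes of the Notch pathway, which holds progenitors back from differentiation, were counted among those kept out of the clustering. In newborn neurons against progenitors 6 of 11 were lower, where 23% of all genes were, and 1 was higher, where 23.9% were. DLL3, a ligand of the pathway that had served as a newborn marker, was at 347 and 443 CPM in newborn neurons, against 2.89 and 4.41 CPM in progenitors. NOTCH2, a receptor, was at 5.26 and 9.39 CPM in newborn neurons, against 103 and 106 CPM in progenitors (-3.47 ± 0.36, adjusted p = 1.6e-12). Of 8 genes of the REST complex, which silences neuronal genes in other cells, 3 were higher and 2 lower, beside 23.9% and 23% of all genes. The level of REST itself is not given here, and these counts are not read as its activity. RCOR2, a corepressor of the CoREST family, was at 57.8 and 78.3 CPM in newborn neurons, against 25.6 and 23.6 CPM in progenitors (1.79 ± 0.25, adjusted p = 1.8e-08). Between later and newborn neurons edgeR and DESeq2 each called 0 of the 8, and 1 had an unadjusted p under 0.05 in edgeR. RCOR1 had an adjusted p of 0.074 there.

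Of 13 neuronal subtype factors tested, 4 were higher and 1 lower in later than in newborn neurons, beside 6.14% and 4.96% of all genes. SHOX2, a homeodomain factor of excitatory interneurons, gave 1.66 ± 0.32 (adjusted p = 0.00012) and LHX9, a LIM-homeodomain factor of dorsal interneurons, gave 1.48 ± 0.48 (adjusted p = 0.036). LHX9 was at 98.0 and 45.6 CPM in later neurons, against 12.3 and 37.6 CPM in newborn neurons. SHOX2 was at 198 and 204 CPM in ribosomal-rich later cells, against 33.4 and 61.9 CPM in rich newborn cells. In ribosomal-poor cells SHOX2 was not higher, at 23.9 and 24.7 CPM in later cells against 26.5 and 29.9 CPM in newborn cells. Of 5 sensory neuron genes, 3 were higher in later than in newborn neurons, beside 6.14% of all genes. Among them were the neurotrophin receptors NTRK2 (2.11 ± 0.34, adjusted p = 3.2e-06) and NTRK3 (2.01 ± 0.42, adjusted p = 0.0011). In later neurons NTRK2 was at 183 and 120 CPM in ribosomal-poor cells, against 41.4 and 57.6 CPM in rich cells. NTRK3 was at 174 and 124 CPM in poor later cells, against 23.0 and 50.7 CPM in rich ones. Later neurons are not named sensory from these counts. Of 5 motor neuron genes edgeR and DESeq2 each called 0 between later and newborn neurons, and 2 had an unadjusted p under 0.05 in edgeR. The 10 noradrenergic genes had all served as markers and were not counted.

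Genes with the most similar pattern were found by the Pearson correlation of log2(CPM + 1) over 26 points, 13 units in each of 2 libraries, among 7533 genes. These points share libraries and the correlation is a description. INSM1 was most like GRIK3 (r = 0.93), SLC1A2 (0.90) and MYT1 (0.89). ONECUT1 was most like ROBO3 (0.95) and SCRT2 (0.93), which were also the closest genes to NHLH1 (0.93 and 0.89). ONECUT2 was most like MGAT4C (0.95) and XKR4 (0.95), and EBF2 was most like MGAT4C (0.83) and TFAP2A (0.83). ST18 was most like UNCX (0.90) and HS3ST5 (0.90). Among the factors themselves, ONECUT1 and ONECUT2 reached 0.88 and INSM1 and ST18 0.86. ISL1 had no such partner, with 0.73 for CDH18, and from -0.11 to 0.33 with the other factors.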

How the data were processed

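Single-cell RNA-seq of 2 libraries was analysed from the deposited UMI count matrices. The authors used Cell Ranger with the bosTau9 build, R 4.1.2 and Seurat 4.3.0, per the submitters' processing notes, and no doublets were removed here. The 7 members and all lists were chosen with earlier results of these data known. Cells with at least 500 genes, 1000 UMI and at most 15% mitochondrial UMI were kept. They were clustered with scanpy 1.11.5 (2000 variable genes, 30 components, 15 neighbours, Leiden resolution 1.0, and 0.5 within neurons). The 7 members, the listed genes other than markers, GFP and a random part of the remaining non-marker genes were held out. Together these were 8910 of the 17846 genes. Neuron subclusters were called newborn where the ratio of progenitor and newborn to later marker levels was at least 2, and later where it was under 1, a rule set after the clusters were seen. UMI were summed by library for the units that reached 20 cells in both, and fitted with edgeR 4.0.16 (robust quasi-likelihood, TMM, R 4.3.3), with the library as a block because cells of every unit come from the same 2 libraries. The fit was tested on simulated data. List members named are those with the largest absolute fold in a contrast and at least 50 CPM in the higher stage, at most 4 per list, and for each member the 5 genes most like it. DESeq2 1.42.0 and limma 3.58.1 (prior count 2) served as alternatives. Shares carry exact Clopper-Pearson 95% intervals, which cover counting error only, and a count of 0 allows up to 3 counts. The libraries held 11086320 and 15322092 UMI in kept cells.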

Additional observations from a re-analysis of the deposited data

Results flagged for a closer look

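A pair of differences between the ribosomal classes passed a test of the difference itself, by edgeR's quasi-likelihood test. For ONECUT2, the log2 fold change of later against newborn neurons was 1.65 higher in ribosomal-rich than in ribosomal-poor cells (adjusted p = 0.0082). For INSM1, the log2 fold change of newborn neurons against progenitors was 3.35 higher in rich than in poor cells (adjusted p = 0.00019). All rich newborn cells were in subcluster 4 and all rich later cells in subcluster 2, whereas subclusters 1 and 3 held 0 rich cells and most of the poor ones, and class and subcluster were not separated. Rich newborn cells had medians of 9452 and 10188 UMI, against 3952 and 3537 UMI in poor newborn cells, and the part of depth in these differences was not tested.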

How the results depend on the processing

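In newborn neurons 6 members were higher than in progenitors under every alternative that tested at least 6. In later neurons the count of 6 fell to 4 of 7 with genes centred within libraries and to 5 of 7 with stages from marker sums. All 5 members tested in ribosomal-poor cells were higher than in progenitors, in newborn and in later neurons. The later-against-newborn counts moved. Of the 2 members higher in later neurons, 1 was called with DESeq2 and 1 at Leiden resolution 0.5, and 0 with limma-trend, all deposited barcodes, genes centred within libraries, stages from marker sums and ribosomal-poor cells. Of the 2 lower, 0 were called with limma-trend, and 1 each with DESeq2, Leiden resolution 2.0, centred genes, ribosomal-poor cells and subcluster 0 as newborn. Without the replicate block 3 were called lower, as EBF2 passed (adjusted p = 0.034), and 3 were also called lower at Leiden resolution 0.5, with marker sums, without the robust option and in ribosomal-rich cells. The later-against-newborn log2 fold change reversed for INSM1 in ribosomal-poor cells (0.25) and for ONECUT1 with centred genes (-0.21) and marker sums (-0.077). The cause was not tested. DESeq2's size factors moved the median log2 fold change of all genes to 0.1 in newborn neurons against progenitors, beside -0.014 with TMM. At least 1 member was found in 84.7% of newborn cells on average, in 77.3% with centred genes and in 71.6% after thinning to 2000 UMI. Leaving out 1 library gave values with no test, from 0.67 to 1.30 for ONECUT2 and from -3.27 to -2.22 for ST18 in later against newborn neurons. Splitting by ribosomal class, counting subcluster 0 with a stage, adding the robust option and fitting without it were all chosen after seeing the data. Of 374 log2 fold changes recomputed, 323 kept their direction and side of the threshold. In 1 setting, cells above the 95th percentile of UMI of their library were left out and the rest were clustered and named again. Newborn neurons, 91 cells in replicate 1 under the main setting, then had too few cells there to be fitted. No comparison with newborn neurons was made in that setting, so it does not show whether those results hold.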
